A study of Mus musculus with 6 samples.

Results

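NRF2 peaks that lay in intergenic DNA, far from the genes of the authors' annotation, were examined in mouse embryonic fibroblasts (MEFs). A peak was counted as far when its class in the authors' annotation was intergenic, its distance to the nearest transcription start site (TSS) was above 50000 bp and its centre was not in an annotated repeat. Of 16057 peaks in 4 lists, 2072 met this rule, and they are called far peaks here. The GCN2 knockout (KO) list without leucine held 658 of them among 4600 peaks, the GCN2 KO list from complete medium 418 among 3141, the wild-type (WT) list without leucine 696 among 5980, and the WT list from complete medium, the shortest, 300.

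The cells were MEFs of the 129S6/SvEvTac strain. GCN2 is a kinase that binds uncharged tRNA and slows translation when an amino acid runs short. GCN2 KO cells and WT cells were each kept for 24 h in DMEM lacking leucine or in complete DMEM, and chromatin was precipitated with an NRF2 antibody (ab62352, Abcam) and sequenced. Each of the 4 conditions had 1 NRF2 library, and 2 input libraries came from complete medium, 1 per genotype. The peaks of cells without leucine, also called leucine-starved, therefore had a complete-medium input as their background. With 1 library per condition no comparison below could be checked against replicates, and no p-value is given. Read depth is not known for any list. A longer list can follow from a deeper library, and a site without a peak was under the calling threshold and may still have been bound. A peak list measures neither the loss of GCN2 nor fibroblast markers, so the genotype and cell type rest on the labels.

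NRF2 is a basic leucine zipper transcription factor of the cap'n'collar family. It binds antioxidant response elements as a dimer with a small Maf protein, and the sequence it reads overlaps that of AP-1, the Jun and Fos dimers. KEAP1 keeps NRF2 levels low until oxidants or electrophiles release it. Enhancers can act on promoters over long stretches of DNA, so the nearest gene to a distal site is only an address and need not be the gene it regulates.

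The label "far from genes" depended on the gene table and on how distance was measured. The RefSeq table of GRCm38.p6, the assembly of mm10, placed 151 far peaks (22.9%, exact 95% interval 19.8 to 26.4) of the KO list without leucine inside the span of a gene, 98 (23.4%, 19.5 to 27.8) of the KO list from complete medium, 152 (21.8%, 18.8 to 25.1) of the WT list without leucine, and 74 (24.7%, 19.9 to 29.9) of the WT list from complete medium. Few of these spans were of protein-coding genes, with 26, 16, 28 and 11 far peaks in the KO list without leucine, the KO list from complete medium, the WT list without leucine and the WT list from complete medium. The remainder were spans of non-coding genes, pseudogenes and other loci. Far peaks above 50 kb from every RefSeq gene numbered 125 in the KO list without leucine, 92 in the KO list from complete medium, 127 in the WT list without leucine and 53 in the WT list from complete medium. These distances ran from the window centre to the nearest edge of a gene span, whereas the rule measured to a TSS. Above 50 kb from every protein-coding gene were 519 (78.9%), 309 (73.9%), 505 (72.6%) and 219 (73.0%) far peaks in the same lists. Intervals here and below cover counting error only.

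In 20 far peaks the window reached into a RefSeq promoter, taken as 250 bases before to 50 after a start. These were 9 windows of the KO list without leucine, 1 of the KO list from complete medium, 8 of the WT list without leucine and 2 of the WT list from complete medium, and all 20 were found in 1 list only. Most far peaks were in 1 list only, with 88.6%, 84.2%, 88.1% and 76.7% of them in the same lists. The 4 sequences below are the part of the window inside the promoter, from RefSeq, 5′ to 3′ on the strand of the gene, in mm10 coordinates. All are promoters of long non-coding RNAs. The first pair came from the highest-ranked windows of the 20, and the second pair from the windows whose part inside the promoter held a searched motif. Capitals mark TGACNNNGC, the core of an antioxidant response element, or TGACTCA, the AP-1 element, both searched on both strands.
Gm39465 (chr9:122051459-122051594, minus strand): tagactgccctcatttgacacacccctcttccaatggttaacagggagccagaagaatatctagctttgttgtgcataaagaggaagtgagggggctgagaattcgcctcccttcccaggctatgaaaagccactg
4930428N03Rik (chr14:24620908-24621079, plus strand): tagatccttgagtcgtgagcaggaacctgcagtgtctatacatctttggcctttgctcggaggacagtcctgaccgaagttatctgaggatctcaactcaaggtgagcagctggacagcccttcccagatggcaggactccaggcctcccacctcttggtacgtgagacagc
Gm35298 (chr12:13102482-13102713, plus strand): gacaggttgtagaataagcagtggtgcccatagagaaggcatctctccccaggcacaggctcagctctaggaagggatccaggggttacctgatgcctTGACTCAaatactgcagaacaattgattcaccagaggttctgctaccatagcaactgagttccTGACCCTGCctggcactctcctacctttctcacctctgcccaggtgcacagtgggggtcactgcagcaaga
Gm30537 (chr2:174880124-174880403, plus strand): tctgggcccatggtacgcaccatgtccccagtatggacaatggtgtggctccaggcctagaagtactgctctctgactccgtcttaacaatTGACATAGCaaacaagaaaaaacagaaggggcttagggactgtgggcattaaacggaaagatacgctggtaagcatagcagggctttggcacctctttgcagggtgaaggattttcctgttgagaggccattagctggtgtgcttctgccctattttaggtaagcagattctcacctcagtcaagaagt
The Gm39465 window ranked 480 of 4600 and the 4930428N03Rik window 578.5 of 4600 in the KO list without leucine, and neither motif was in the printed letters. The authors' table gave these windows to Pomgnt2, at -55418 bp from its TSS, and to Rps24, at 130377 bp. Gm35298 held TGACTCA and TGACCCTGC in a window that ranked 1936 of 3141 in the KO list from complete medium. Gm30537 held TGACATAGC in a window that ranked 4505 of 5980 in the WT list without leucine. Within the parts of the windows inside a promoter, which had 3 to 280 bases, TGACNNNGC was in 2 of 20 and TGACTCA in 1. Over the whole promoter entries of 300 bases TGACNNNGC was at 3 of the 20 windows, the third at Gm31892 outside the window, and TGACTCA at 1, where 12.4% and 5.20% of all 32851 entries held them. A motif is a description of letters, and the other far windows were not searched because no genome sequence was used here.

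Far peaks made up a similar share of each list. The share was 14.3% (13.3 to 15.3) in the KO list without leucine, 13.3% (12.1 to 14.5) in the KO list from complete medium, 11.6% (10.8 to 12.5) in the WT list without leucine and 12.8% (11.5 to 14.3) in the WT list from complete medium. Between the lists without leucine the KO interval lay above the WT interval, and every other pair of neighbouring shares had overlapping intervals. Of the intergenic peaks, the far peaks were 29.0% of 2268 in the KO list without leucine, 29.8% of 1401 in the KO list from complete medium, 27.4% of 2541 in the WT list without leucine and 29.0% of 1034 in the WT list from complete medium. Windows centred on a repeat were left out by the rule, and they were 458, 254, 431 and 164 of the intergenic windows above 50 kb in the KO list without leucine, the KO list from complete medium, the WT list without leucine and the WT list from complete medium.

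The distance to the nearest TSS had nearly the same distribution in every condition, as the histograms of distance show. The median was 113192 bp (interval 104037 to 122346) in the KO list without leucine and 110157 bp (99866 to 117679) in the KO list from complete medium. It was 110054 bp (103153 to 117480) in the WT list without leucine and 106293 bp (92188 to 121906) in the WT list from complete medium, so all 4 intervals overlapped. Quartiles ran from 73856 to 199864 bp in the KO list without leucine, 75060 to 189687 bp in the KO list from complete medium, 70162 to 191799 bp in the WT list without leucine and 71484 to 186591 bp in the WT list from complete medium. Peaks upstream and downstream of the nearest TSS were about equally common, with 53.0% (49.1 to 56.9) upstream in the KO list without leucine, 50.2% (45.3 to 55.1) in the KO list from complete medium, 49.6% (45.8 to 53.4) in the WT list without leucine and 48.7% (42.9 to 54.5) in the WT list from complete medium.

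**Figure D1:**
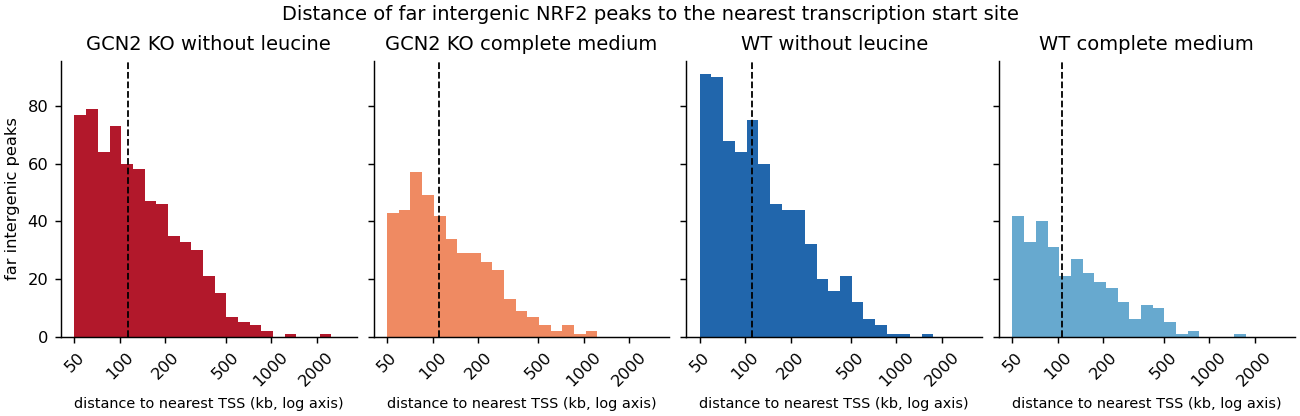
Histograms of the absolute distance from each far peak to the nearest TSS, in kb on a log axis, with the number of far peaks on the vertical axis, for the 4 NRF2 lists. The dashed line is the median, which lay between 106293 and 113192 bp, and counts fell off with distance in each list.

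Distances above 500 kb were rare, with 21 peaks in the KO list without leucine, 13 in the KO list from complete medium, 25 in the WT list without leucine and 9 in the WT list from complete medium. The most remote peak of the KO list without leucine lay 2158957 bp downstream of Olfm4, which encodes a secreted olfactomedin protein, at rank 1326.5. In the KO list from complete medium it lay 1216677 bp downstream of Zpld1 at rank 2282.5. In the WT list without leucine it lay 1664495 bp upstream of Dsel at rank 3013, and in the WT list from complete medium 1560397 bp downstream of 4932441J04Rik at rank 1181. Each of these 4 was found in its own list only. At the limit of the rule, the nearest members lay at 50085, 50080, 50123 and 50549 bp in the KO list without leucine, the KO list from complete medium, the WT list without leucine and the WT list from complete medium. The nearest windows just short of it lay at 49679, 49804, 49816 and 49617 bp in the same lists.

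The authors' score per peak was used only to rank peaks within a list, with rank 1 as the highest score, and many peaks share a score. Far peaks ranked in the middle of their lists. Their median rank stood at percentile 47.3 in the KO list without leucine, 51.7 in the KO list from complete medium, 50.4 in the WT list without leucine and 50.6 in the WT list from complete medium, the same tied value as the median of all peaks in each list. The highest score decile held 8.36% (6.36 to 10.7) of the far peaks in the KO list without leucine, 7.89% (5.50 to 10.9) in the KO list from complete medium, 9.63% (7.54 to 12.1) in the WT list without leucine and 8.33% (5.47 to 12.1) in the WT list from complete medium. With ties, it held 10.1%, 9.87%, 9.77% and 9.97% of all peaks in the same lists. Each far interval held the share of all peaks, so the far shares are near the background. For intergenic peaks within 50 kb of a TSS and outside repeats these shares were 12.5% (10.1 to 15.1) in the KO list without leucine, 14.8% (11.7 to 18.4) in the KO list from complete medium, 11.8% (9.80 to 14.0) in the WT list without leucine and 14.0% (10.7 to 17.9) in the WT list from complete medium. The intervals of far and nearer intergenic peaks were separate in the KO list from complete medium and overlapped in the other lists.

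A far peak was called recurrent when it overlapped a peak of any other list by at least 1 bp. In the KO list without leucine 75 of 658 far peaks were recurrent (11.4%, 9.07 to 14.1), where 14.0% of all peaks of the list were. In the KO list from complete medium these were 66 of 418 (15.8%, 12.4 to 19.6), where 18.4% of all peaks were. The WT list without leucine had 83 of 696 (11.9%, 9.61 to 14.6), where 12.6% of all peaks were recurrent. The WT list from complete medium had 70 of 300 (23.3%, 18.7 to 28.5), where 27.0% of all peaks were. Each interval held the share of all peaks, so these counts are near the background. Of the intergenic peaks within 50 kb and outside repeats a larger share was recurrent in each list, with 16.1% (13.5 to 19.04) in the KO list without leucine, 25.8% (22.0 to 30.05) in the KO list from complete medium, 15.3% (13.1 to 17.7) in the WT list without leucine and 33.1% (28.3 to 38.1) in the WT list from complete medium. The intervals of far and nearer peaks were separate in the KO list from complete medium and overlapped in the other lists. Weighted to the score deciles of the far peaks, the nearer peaks had 13.2%, 19.8%, 14.0% and 30.2% in the KO list without leucine, the KO list from complete medium, the WT list without leucine and the WT list from complete medium.

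Recurrence was highest in the first score decile among far peaks, as it was among other peaks, as the plot of recurrence by score decile shows. In the highest decile 40 of 55 far peaks (72.7%, 59.0 to 83.9) were recurrent in the KO list without leucine and 28 of 33 (84.8%) in the KO list from complete medium. The same decile had 53 of 67 (79.1%) in the WT list without leucine and 24 of 25 (96.0%) in the WT list from complete medium. In the lowest decile the counts were 3 of 68, 1 of 43, 0 of 73 and 1 of 39 in the KO list without leucine, the KO list from complete medium, the WT list without leucine and the WT list from complete medium. In the second decile of the KO list without leucine 5 of 68 far peaks were recurrent (7.35%, 2.43 to 16.3), against 77 of 374 other peaks (20.6%, 16.6 to 25.05). These intervals were narrowly separate, and the far share was below those of the third and the fourth decile, at 11.7% and 13.2%. This decile was singled out from all deciles of all lists after the values were seen. In every other decile of every list the intervals of far and other peaks overlapped. The second decile had 26.5% against 37.3% in the KO list from complete medium. It had 16.9% against 17.8% in the WT list without leucine and 54.3% against 65.7% in the WT list from complete medium. With the other peaks weighted to the deciles of the far peaks, their recurrence was 13.1% in the KO list without leucine, 17.1% in the KO list from complete medium, 12.5% in the WT list without leucine and 27.2% in the WT list from complete medium.

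**Figure D2:**
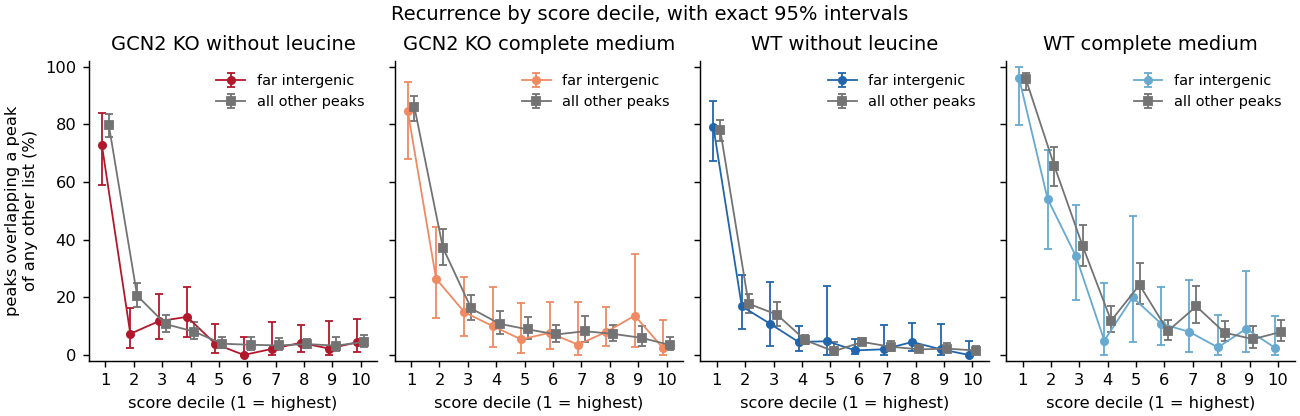
Share of far peaks (coloured circles) and of all other peaks (grey squares) that overlapped a peak of any other list, in percent, by score decile within the list (1 is the highest), with exact 95% intervals. In decile 1 the far peaks stood between 72.7% and 96.0%, and their intervals overlapped those of the other peaks.

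Leucine withdrawal was compared with complete medium within each genotype, to ask whether far sites persisted when an amino acid was missing. In GCN2 KO cells 51 of 658 far peaks without leucine (7.75%, 5.83 to 10.1) were shared with the complete-medium list, where 9.33% of all peaks were, and of the far peaks in complete medium 50 of 418 (11.96%, 9.01 to 15.5) were shared with the list without leucine, where 13.7% of all peaks were. In WT cells 62 of 696 far peaks without leucine (8.91%, 6.90 to 11.3) were shared with the complete-medium list, where 8.96% of all peaks were, and of those in complete medium 60 of 300 (interval 15.6% to 24.98%) were shared with the list without leucine, where 22.9% of all peaks were. GCN2 KO was compared with WT within each medium in the same way. Without leucine 50 of 658 KO far peaks (7.60%, 5.69 to 9.90) overlapped the WT list, where 10.4% of all peaks did, and 51 of 696 WT far peaks (7.33%, 5.50 to 9.52) overlapped the KO list, where 7.96% of all peaks did. In complete medium 41 of 418 KO far peaks (9.81%, 7.13 to 13.1) overlapped the WT list, where 11.6% of all peaks did, and 39 of 300 WT far peaks (interval 9.41% to 17.3%) overlapped the KO list, where 15.6% of all peaks did. The share for KO peaks without leucine in the WT list was the one case whose interval excluded the share of all peaks.

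All peaks of the 4 lists were merged where they overlapped, and 1895 regions held at least 1 far peak. Of these, 1778 (93.8%) were in 1 list, 56 (2.96%) in 2, 34 (1.79%) in 3 and 27 (1.42%, 0.941 to 2.07) in all 4. The 12495 other regions split in nearly the same way, with 93.4% in 1 list, 3.36% in 2, 1.40% in 3 and 1.83% (1.60 to 2.08) in 4. Among regions in 2 lists, 17 were in both KO lists, 17 in both WT lists, 11 in both lists without leucine and 3 in both complete-medium lists. The last 8 joined the KO list of one medium with the WT list of the other, 5 of them KO in complete medium with WT without leucine. The 420 other regions in 2 lists had 80 in both KO lists and 132 in both WT lists. In both lists without leucine were 86 of them, and in both complete-medium lists 20. Among far regions in 3 lists, 13 lacked a peak in KO cells in complete medium, 9 in KO cells without leucine, 6 in WT cells without leucine and 6 in WT cells in complete medium. Of the 175 other regions in 3 lists, 59, 50, 21 and 45 lacked a peak in the same conditions.

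**Figure D3:**
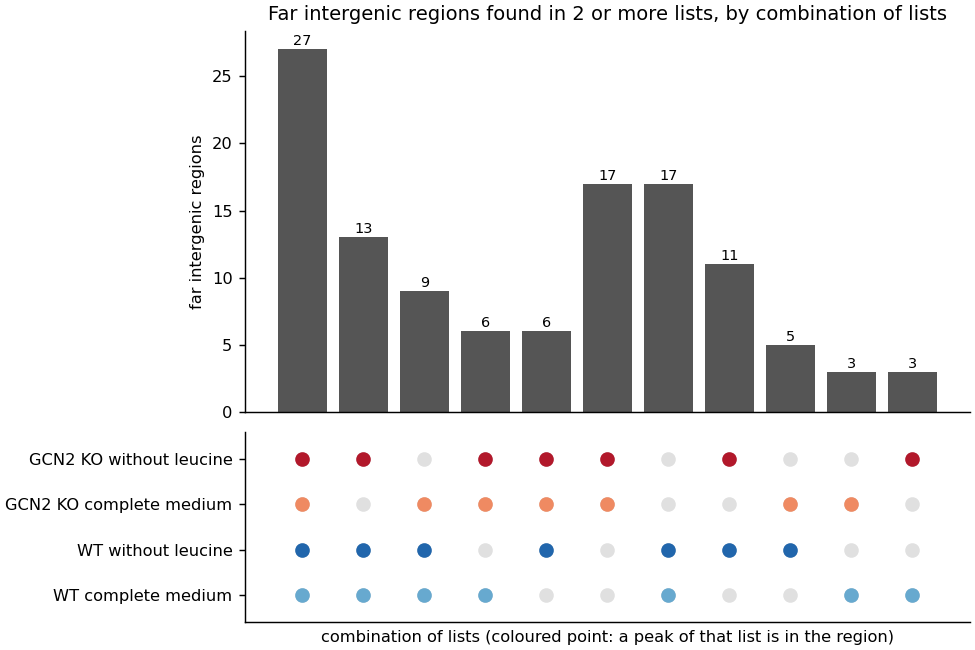
Number of far intergenic regions in each combination of 2 or more lists, with the lists of a combination marked by coloured points under each bar. The bar for all 4 lists is the tallest, at 27 regions, and the pairs sharing a genotype have 17 each. Among other regions, which are not drawn, 229 were in all 4 lists, 80 in both KO lists and 132 in both WT lists.

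The 27 far regions in all 4 lists were the sites that recurred most. Their windows coincided closely, with starts spread over 13 to 109 bp and a median spread of 47 bp. In 22 of them every window met the rule, and in the other 5 at least 1 window was centred on a repeat. The first score decile of every list held 16 of the 27. Other peaks in 4 lists also ranked high. Their median rank percentiles were 4.09 in the KO list without leucine and 5.27 in the KO list from complete medium. In the WT lists they were 2.68 without leucine and 7.53 in complete medium. Far peaks in 4 lists had 1.98, 4.41, 2.37 and 6.57 in the same order. RefSeq placed 9 of the 27 far regions inside a gene span, 1 of which, Tiam1, codes for a protein.

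The strongest far site lay 74143 to 74187 bp downstream of A530013C23Rik, a non-coding RNA gene, at chr2:167765170-167765514. It ranked 8 of 4600 in KO cells without leucine, 5 of 3141 in KO cells in complete medium, 3 of 5980 in leucine-starved WT cells and 7 in WT cells in complete medium. The site was near the top of every list, and its GC fraction of 0.648 to 0.658 was the highest of the 27 regions. The flanking protein-coding genes were Cebpb, which encodes the transcription factor C/EBP beta, 74.9 kb away, and Ptpn1, a protein tyrosine phosphatase gene, 165 kb away.

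Other sites with a high mean rank lay beside genes of varied function. The Gm7854 site (chr5:43355182-43355553), between Cpeb2, an RNA-binding protein gene, and C1qtnf7, ranked 18 in KO cells without leucine, 37 in KO cells in complete medium, 69 in leucine-starved WT cells and 13 in WT cells in complete medium. The site upstream of Gmds, the enzyme that starts GDP-fucose synthesis (chr13:32465909-32466223), ranked 20.5, 59.5, 84.5 and 37 in KO cells without leucine, KO cells in complete medium, WT cells without leucine and WT cells in complete medium. The site assigned to 1500009L16Rik (chr10:84056325-84056657) lay 314 kb from Nuak1, an AMPK-related kinase gene, and ranked 16 in KO cells without leucine, 138.5 in KO cells in complete medium, 30 in leucine-starved WT cells and 45 in WT cells in complete medium. All of these sites were in the first decile of each list. The Gm5420 site (chr10:21776465-21776803) lay 106 kb from Sgk1, a serum- and glucocorticoid-induced kinase gene, and ranked 31.5 in KO cells without leucine, 16 in KO cells in complete medium, 162 in leucine-starved WT cells and 74.5 in WT cells in complete medium. The A730085K08Rik site lay 90.2 kb from Abhd5, a co-activator of fat breakdown at lipid droplets, and ranked 103.5 in KO cells without leucine, 52 in KO cells in complete medium, 115 in leucine-starved WT cells and 41 in WT cells in complete medium.

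The other 4-list sites named by the rule had mean ranks of 43.8 to 417, and some stood above sites just described. The Enkur site ranked 30 in KO cells without leucine, 41 in KO cells in complete medium, 43 in leucine-starved WT cells and 61 in WT cells in complete medium. The 1600002D24Rik site was 94.0 kb from Ets2, an ETS-family transcription factor gene, and ranked 137.5 in KO cells without leucine, 256 in KO cells in complete medium, 36 in leucine-starved WT cells and 351 in WT cells in complete medium. The Sall1 site, at -448443 to -448390 bp from the TSS of a zinc finger gene of kidney development, ranked 175.5, 193.5, 60 and 351 in KO cells without leucine, KO cells in complete medium, WT cells without leucine and WT cells in complete medium. The Irx3 site, upstream of an Iroquois homeobox gene by 82863 to 82910 bp, ranked 231.5 in KO cells without leucine, 428.5 in KO cells in complete medium, 603.5 in leucine-starved WT cells and 406 in WT cells in complete medium. The 4933400L20Rik site lay between the cadherin genes Cdh11 and Cdh5, 917 kb and 399 kb away. The Kcng1 site, upstream of a potassium channel subunit gene and 155 kb from the transcription factor gene Nfatc2, ranked 1152 in KO cells without leucine, 176 in KO cells in complete medium, 98 in leucine-starved WT cells and 40 in WT cells in complete medium. The remaining sites were assigned to Rpap3, Gm5086, Fam198b, Car8, Mir145b, Slco3a1, C030016D13Rik and C230029M16. The Rpap3 site, 123891 to 123943 bp from the gene of an RNA polymerase II assembly factor, ranked 260.5 in KO cells without leucine, 94.5 in KO cells in complete medium, 44 in leucine-starved WT cells and 18 in WT cells in complete medium. The others include Car8, a carbonic anhydrase-related protein gene, and Slco3a1, an organic anion transporter gene.

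In 5 of the 27 regions the window of the KO list from complete medium stood below the middle of that list, and no other list had such a window. These lay near Jun, Gpc1, Sypl, 4930452A19Rik and Gm10789, and they were singled out after their values were seen. The same count is not given here for the 229 other regions in 4 lists. Whether such windows are particular to far regions is therefore not known. The Jun site (chr4:95162445-95162849), at -110477 to -110373 bp from the TSS of the AP-1 gene Jun and inside the span of the long non-coding RNA Junos, ranked 137.5 in KO cells without leucine, 2562.5 of 3141 in KO cells in complete medium, 151.5 in leucine-starved WT cells and 257.5 in WT cells in complete medium. It met the rule in KO cells in complete medium only, since the other windows were centred on a B2 SINE repeat. The Gm10789 site (chr16:90072660-90073045) lay inside Tiam1, a Rac activator gene, and 148 kb from Sod1, which encodes a superoxide dismutase. It ranked 527.5 in KO cells without leucine, 2282.5 in KO cells in complete medium, 264.5 in leucine-starved WT cells and 510.5 in WT cells in complete medium. Ranks in lists of different length do not measure a change in binding.

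**Figure D4:**
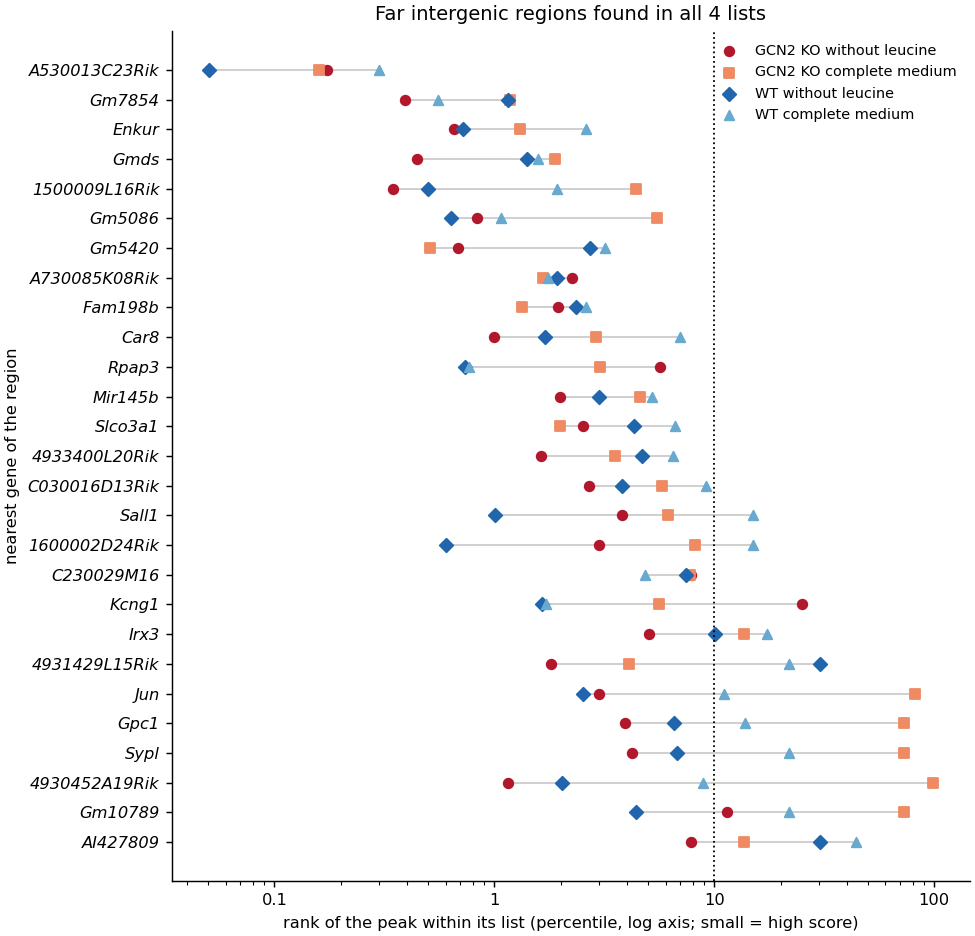
Rank of each of the 27 far regions in all 4 lists, as a percentile of its list on a log axis (small values are high scores), 1 row per region labelled by the authors' nearest gene, with 1 symbol per list and a grey line over their range. The dotted line marks the first decile, which holds all 4 symbols for 16 regions, and the 5 KO symbols from complete medium at the far right are the regions near Jun, Gpc1, Sypl, 4930452A19Rik and Gm10789.

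High-scoring far sites that missed 1 or more lists were named by their rank in each comparison. Sites in both KO lists and neither WT list included one that the authors' annotation put at -152983 bp from the TSS of Tenm3, a teneurin adhesion receptor gene. It ranked 249 without leucine and 247.5 in complete medium, and the RefSeq span of Tenm3 held 2 far peaks from 2 lists. Another was the site 283699 bp downstream of Adra2a, an adrenergic receptor gene (rank 188 without leucine). A site 55473 bp upstream of Thy1, a surface glycoprotein of fibroblasts and other cells, was also in both KO lists alone, at rank 256 of 3141 in complete medium. It was the only recurrent one of the 3 far peaks nearest to Thy1, so the window without leucine that overlapped it was not among them. Sites in both WT lists and neither KO list lay near Bmper, which encodes a BMP-binding protein (rank 213 of 5980 without leucine), Tapt1, and Sucla2, a subunit of a mitochondrial succinate-CoA ligase (rank 176 in complete medium). Nearest WT peaks without leucine were 370715 bp from the Tenm3 site, and 14211 bp from the Adra2a site.

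Sites in both lists without leucine and neither complete-medium list included those near D830013O20Rik (rank 185.5 in KO cells) and Lyplal1 (rank 258.5 in WT cells). Among the named sites the one near Nabp1, a single-stranded DNA-binding protein gene, was in both complete-medium lists alone, at rank 236.5 in KO cells and 242.5 in WT cells. Sites missing from KO cells in complete medium alone lay near Ttc9 (rank 116 in KO cells without leucine and 81 in WT cells in complete medium), Pdk4, a kinase that inhibits pyruvate dehydrogenase (rank 147 in KO cells without leucine), Slc22a23 and Tiparp, a mono-ADP-ribosyltransferase gene (rank 85 in WT cells in complete medium). Sites missing from KO cells without leucine alone lay near Igfbp3, an insulin-like growth factor binding protein gene (rank 239.5 in KO cells in complete medium), Gm8709 and Ahctf1. The site near Mbnl2, a splicing regulator gene, was missing from WT cells in complete medium alone and ranked 131 of 5980 in WT cells without leucine. Missing from WT cells without leucine alone were sites near 1700017J07Rik and 4933402C06Rik, at ranks 156 and 175.5 in KO cells without leucine.

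Some high-ranked far sites were found in 1 list. In KO cells without leucine a site upstream of Spag16, a sperm flagellum gene, ranked 218 of 4600. In KO cells in complete medium a site 110198 bp downstream of Mgst1, which encodes microsomal glutathione S-transferase 1, ranked 109 of 3141, and a site near Kitl, the KIT ligand gene, ranked 242.5. The nearest peak of KO cells without leucine was 40838 bp from the Mgst1 site. In WT cells without leucine a site near Papd7 ranked 264.5, and in WT cells in complete medium a site 60899 bp upstream of Sesn3, a sestrin stress-response gene, ranked 189.5. Sites near Svil, Mir148a and N4bp1 were likewise in the WT list from complete medium alone, at ranks 252.5, 303.5 and 311.

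The far peaks had 1203 nearest genes in all, of which 839 were in 1 list, 229 in 2, 95 in 3 and 40 in 4. Only 22 of those 40 were the nearest gene of a region found in all 4 lists, and for the other 18 no single region was in all 4 lists. Many of the nearest genes were not protein-coding. The protein-coding share of far peaks was 76.7% in the KO list without leucine, where it was 84.3% of the rest, and 73.0% in the KO list from complete medium, where it was 84.7% of the rest. It was 78.4% in the WT list without leucine and 78.3% in the WT list from complete medium, where it was 85.0% of the rest in both.

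Single genes gathered several far peaks. In KO cells without leucine Mroh5 was nearest to 7 far peaks over 190 kb, at ranks 895.5 to 3872.5 of 4600, and none of the 7 overlapped a peak of another list. Ajap1, which encodes an adherens junction protein, had 6 there, 3 in KO cells in complete medium, 3 in leucine-starved WT cells and 0 in WT cells in complete medium. Cdh26, a cadherin gene, Prox1, a homeobox gene of lymphatic endothelium, and Vrk1, a nuclear kinase gene, had 5 each in KO cells without leucine. Kazn had 5 and 4931429L15Rik 4 in KO cells in complete medium, Fam19a5 and Fam86 had 4 each in WT cells without leucine, and B3gnt2 and Gm833 had 3 each in WT cells in complete medium. Dlg1, a scaffold protein gene, had 2 in WT cells without leucine and 2 in WT cells in complete medium. Among the 5 genes with most far peaks in each list, recurrent far peaks were found at 4931429L15Rik, with 1 of 4 in KO cells in complete medium, at B3gnt2, with 1 of 3 in WT cells in complete medium, and at Dlg1, with both in WT cells in complete medium. The recurrent 4931429L15Rik window ranked 128.5 of 3141 and was in all 4 lists. A further far peak within 50 kb was found for 23.3% of far peaks in the KO list without leucine, 11.7% in the KO list from complete medium, 21.0% in the WT list without leucine and 7.33% in the WT list from complete medium. The lists without leucine, which were also the longer ones, had the higher shares. The same share is not given here for other peaks, so whether such clustering is particular to far peaks is not known.

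Gene groups were read through the nearest gene. Of 81 genes of developmental transcription factors, 33 (40.7%) were nearest to a far peak in at least 1 list, where 954 of 21900 protein-coding genes (4.36%) were. They numbered 18 (22.2%) in the KO list without leucine, 9 (11.1%) in the KO list from complete medium, 15 (18.5%) in the WT list without leucine and 9 (11.1%) in the WT list from complete medium. Of all protein-coding genes 1.81%, 1.24%, 2.1% and 0.995% were nearest to a far peak in the same lists. All 6 Iroquois genes, Irx1 to Irx6, and all 3 teashirt genes, Tshz1 to Tshz3, were among them. Irx5 had 3 far peaks in KO cells without leucine, 1 in KO cells in complete medium, 3 in leucine-starved WT cells and 0 in WT cells in complete medium, none of them recurrent. Tshz1 had 3, 0, 2 and 1 far peaks in KO cells without leucine, KO cells in complete medium, WT cells without leucine and WT cells in complete medium, the best at rank 145.5 in WT cells without leucine. Genes of this kind are known to sit beside long gene-free stretches, and the length of the gene-free DNA around each gene was not taken into account here.

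Of 79 neuronal adhesion and synapse genes, 15 were nearest to a far peak, with 7 (8.86%) in the KO list without leucine, 5 (6.33%) in the KO list from complete medium, 8 (10.1%) in the WT list without leucine and 1 (1.27%) in the WT list from complete medium, the last close to the share of all protein-coding genes. Robo1, an axon guidance receptor gene, had far peaks in 3 of the lists, and Tenm3, Tenm4, Cdh6 and Cadm1 in 2 each. Of the 4 far peaks of Robo1, 3 were recurrent, as were both of Tenm3. None of those of Tenm4, Cdh6 or Cadm1 was, so their lists held different sites. These 15 are 18.99% of their list, where 4.36% of all protein-coding genes were nearest to a far peak. For this group and those below, the length of gene-free DNA around each gene was likewise not taken into account. Of 50 classical target genes of NRF2 3 (6%) were nearest to any far peak, a share close to that of all protein-coding genes, each in 1 list: Mgst1 and Fech, the enzyme that inserts iron into protoporphyrin, in KO cells in complete medium, and Slc7a11, the cystine transporter, in KO cells without leucine at 316917 bp and rank 817.5. Of 24 AP-1, CNC and small Maf family genes, 5 (20.8%) were nearest to a far peak, among them Atf3, Bach1, Jun and Maf. The share was 0% in the KO list without leucine, 12.5% in the KO list from complete medium, 8.33% in the WT list without leucine and 4.17% in the WT list from complete medium. Maf was the one in 2 lists, and neither of its peaks was recurrent. Of 42 amino acid response genes 5 (11.9%) were. Psat1, a serine synthesis enzyme, and Cth, which makes cysteine from cystathionine, were so in 2 lists each, and Vldlr, Slc7a11 and Slc38a2 in 1. None of the far peaks of Psat1 or Cth was recurrent, so the 2 lists held different sites. Slc7a11 belongs to both gene groups. Of 47 fibroblast and matrix genes 4 (8.51%) were, namely Thy1 and Fbln2 in 2 lists each, and Twist2 and Prrx1 in 1. Of the 3 far peaks of Thy1, 1 was recurrent, and none of those of Fbln2 was.

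The windows of far peaks were slightly poorer in G and C than those of all other peaks pooled. The median GC fraction was 0.512 (interval 0.508 to 0.515) in the KO list without leucine, 0.510 (0.505 to 0.515) in the KO list from complete medium, 0.510 (0.505 to 0.515) in the WT list without leucine and 0.505 (0.498 to 0.508) in the WT list from complete medium. For all other peaks it was 0.518 (0.518 to 0.522) in the KO list without leucine, 0.522 (0.522 to 0.525) in the KO list from complete medium, 0.522 (0.522 to 0.522) in the WT list without leucine and 0.515 (0.512 to 0.518) in the WT list from complete medium. The far intervals lay below those of the other peaks in each list, and promoter peaks stood highest, with medians from 0.548 in the KO list without leucine to 0.568 in the WT list without leucine. Intergenic peaks in repeats had medians as low, at 0.515, 0.508, 0.508 and 0.505 for those beyond 50 kb and 0.508, 0.505, 0.505 and 0.502 for nearer ones in the KO list without leucine, the KO list from complete medium, the WT list without leucine and the WT list from complete medium.

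GC was lower in peaks that recurred, far or not, as the plot of GC by number of lists shows. It was also lower in the highest score decile than in the lowest, and recurrence was most common in the highest. Far peaks had medians of 0.492, 0.498, 0.498 and 0.495 in decile 1, in the order of lists used below. In decile 10 they had 0.520, 0.508, 0.532 and 0.518. Score and recurrence were not separated here. Far peaks of 1 list had a median of 0.512 in the KO list without leucine, 0.515 in the KO list from complete medium, 0.512 in the WT list without leucine and 0.508 in the WT list from complete medium. Far peaks found in 4 lists had medians of 0.488 (interval 0.468 to 0.505), 0.488 (0.475 to 0.515), 0.493 (0.458 to 0.505) and 0.493 (0.472 to 0.515) in the KO list without leucine, the KO list from complete medium, the WT list without leucine and the WT list from complete medium. Both lists without leucine had separate intervals for 4-list and 1-list far peaks, and those of the complete-medium lists overlapped. All other peaks had medians of 0.522, 0.525, 0.522 and 0.518 in 1 list and 0.505, 0.508, 0.508 and 0.512 in 4 lists, in the same order. Those in 3 lists had lower medians than those in 4, at 0.485, 0.502, 0.498 and 0.498. The 4-list peaks are largely the same regions in each list, so the 4 medians are not independent. Within the 27 regions GC spanned 0.435 to 0.658, and the A530013C23Rik site at the upper end was also the highest in rank.

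**Figure D5:**
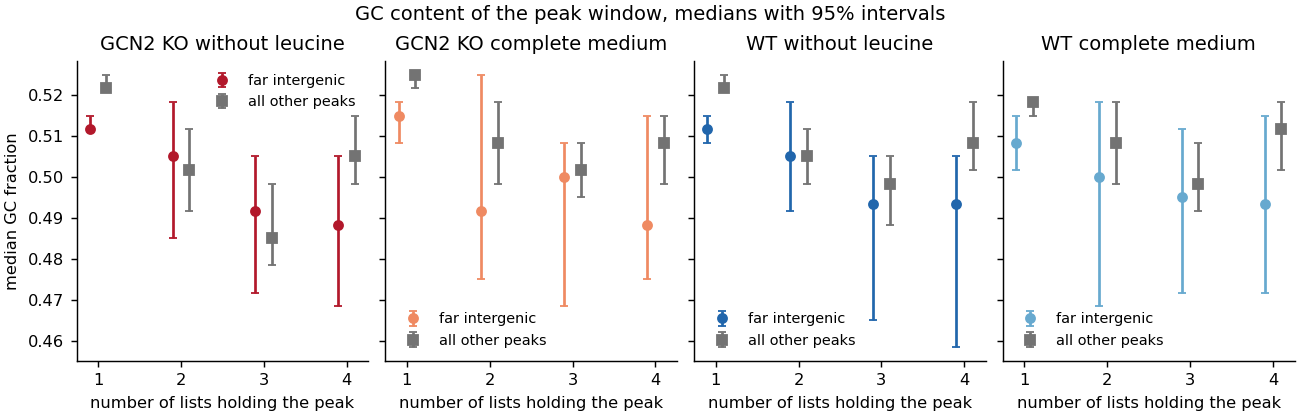
Median GC fraction of the window, with 95% intervals, by the number of lists that hold the peak, for far peaks (coloured circles) and all other peaks (grey squares) in each NRF2 list. Far peaks of 1 list had medians of 0.508 to 0.515 and those found in 4 lists 0.488 to 0.493, and the other peaks had 0.518 to 0.525 in 1 list and 0.505 to 0.512 in 4.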

How the data were processed

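The deposited files used here were 4 annotated peak lists, 1 per NRF2 library. Reads were single, of 50 bp, per the labels' protocols. The submitters' processing notes name mm10 and the tools HOMER 4.7, MACS2 2.1.0 and BWA 0.7.12. Windows of 300 bp carried the authors' peak score, a whole number of at least 13 whose origin in the caller's output is not stated, and the authors' GC and CpG fraction. Per the file headers, the input in each call was that of the same genotype in complete medium, and HOMER annotated the peaks.

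Lists were filtered, overlapped (at least 1 bp), merged and set against the RefSeq gene and promoter tables of GRCm38.p6 with Python 3.11.15, pandas 2.3.3 and SciPy 1.17.1. The overlap step was tested on simulated data. Of the 2072 far peaks, 2070 had a nearest-gene identifier in the RefSeq table. Shares have exact Clopper-Pearson 95% intervals, and medians have order-statistic 95% intervals. Score deciles share tied ranks. Depth is unknown, and with 1 library per condition the 4 comparisons carry no test. Motifs in whole windows, planned if a genome was at hand, were not searched, and the printed promoter parts were chosen after their values were seen.

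The far peaks, gene lists and naming rules were chosen with earlier results of these data known. Genes were named for the 20 best-ranked 4-list regions, the 5 highest-scoring far peaks of each list, the 5 highest without overlap in each direction of a comparison, the 5 genes with most far peaks per list, list members in at least 2 lists, and the most remote peak of each list. Not every gene that meets a rule is printed. Alternatives changed the distance limit, repeats, list length, chromosomes and overlap rule.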

Additional observations from a re-analysis of the deposited data

Results flagged for a closer look

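The share of far peaks moved in opposite directions with leucine withdrawal in the 2 genotypes. In GCN2 KO cells it was 0.996 percentage points higher without leucine than in complete medium (14.3% against 13.3%), whereas in WT cells the difference without leucine minus complete medium was -1.20 percentage points (11.6% against 12.8%). The difference between the genotypes was not tested, since each condition had 1 library, and the intervals of the lists overlapped within each genotype. In the higher-scoring 50% of each list both differences were positive, at 1.58 points in KO cells and 0.125 in WT cells.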

How the results depend on the processing

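No paired analysis was possible because each condition had 1 library and no result came from a test. Leaving out a library was not possible for the same reason. The motif alternatives were not run, since no genome sequence was used here. A value counted as unmoved when it stayed within the 95% interval of the reported value (a count, within 1.5 times), and this held for 209 of 272 values, among them all values under reciprocal overlap of 50%, centres within 100 bp, widening by 500 bp and main chromosomes only. Values below are in the order GCN2 KO without leucine, GCN2 KO in complete medium, WT without leucine and WT in complete medium unless stated. A limit of 100 kb gave far shares of 8.04%, 7.29%, 6.45% and 6.59%, median distances of 185980, 182456, 180976 and 182463 bp, recurrence of 8.65% in KO without leucine, and 1007, 23, 17 and 12 regions in 1, 2, 3 and 4 lists. A limit of 20 kb gave shares of 21.6%, 19.8%, 18.9% and 20.6%, medians of 72894, 75518, 64812 and 64811 bp, and 2708, 101 and 52 regions in 1, 2 and 4 lists. With repeat windows kept, shares were 24.3%, 21.4%, 18.8% and 19.9%, median distances 128153, 119411 and 120070 bp in the first 3 lists, and 2908 and 85 regions were in 1 and 2 lists. Without windows inside a RefSeq gene, an alternative chosen after seeing the data, shares were 11.02%, 10.2%, 9.10% and 9.67%.

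In the higher-scoring 50% of each list recurrence was 15.5%, 22.6%, 19.05% and 42.0%, the median rank percentile 60.2 in WT without leucine and 43.7 in WT in complete medium, and the median GC 0.505 in KO without leucine. The shares found in the other list were 10.3% (KO without leucine in KO complete), 15.9% (KO complete in KO without leucine), 14.8% (WT without leucine in WT complete), 38.4% (WT complete in WT without leucine), 12.02% (KO in WT without leucine), 11.8% (WT in KO without leucine), 15.4% (KO in WT complete) and 22.5% (WT in KO complete), with 818 and 33 regions in 1 and 2 lists. With all lists cut to the length of the shortest the median GC was 0.505 in KO without leucine, recurrence was 17.1% in KO without leucine and 25.4% in WT without leucine, and 996 and 37 regions were in 1 and 2 lists. The shares found in the other list were then 12.7% (KO without leucine in KO complete), 21.1% (WT without leucine in WT complete), 11.8% (KO in WT without leucine) and 15.1% (WT in KO without leucine). Distance limits and shorter lists move these values by construction, since they change which peaks enter.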

Other observations

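The X chromosome held few peaks of any kind, with 35 in the GCN2 KO list without leucine (0.761% of the list), 12 in the GCN2 KO list from complete medium, 21 in the WT list without leucine and 6 in the WT list from complete medium. Of these 5, 1, 1 and 0 were far peaks in the same lists. The span of Igh, the immunoglobulin heavy-chain locus, held 5 far peaks from 3 lists, although the authors' annotation called them intergenic. The long non-coding RNA spans Gm31432 and Gm33262 held 7 far peaks each from all 4 lists. These values were singled out after they were seen.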
